A study of Bos taurus with 12 samples.

Results

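The granulosa cells of subordinate follicles (SF) were compared at 2 times of the bovine estrous cycle, day 7 against day 3, using 6 of the 12 small RNA libraries of the study, 3 of each day. The libraries were chosen by the follicle class and day in their labels. Each mature miRNA name entered once, through its precursor entry with the highest total, and 337 of the 755 names were detected, that is, had a read in 2 or more of the 3 replicates on at least 1 of the days.

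The SF libraries belong to a study that also sequenced dominant follicles (DF) on both days, to follow miRNAs while 1 follicle gains dominance and the others regress. All granulosa cells came from Simmental heifers whose estrus was synchronized with a prostaglandin F2α analogue and a GnRH analogue, and all groups share this treatment. Different heifers were slaughtered on day 3 and on day 7. The granulosa cells were spun out of follicular fluid that was pooled by follicle size class, so an SF library is a pool of follicles. The paper counts no more DF at day 7 than DF day 7 libraries, so each of those may hold a single follicle. The upper diameter for calling a follicle SF was set higher on day 7 than on day 3, and so was the diameter range for DF. In both classes, and in the difference between them, the effect of the day and that of follicle size cannot be told apart. The labels call the samples biological replicates without tying them to animals, and the p-values measure the spread between these samples. In such bulk samples, fewer cells of a type and less of an RNA per cell cannot be told apart.

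Granulosa cells line the follicle, respond to the gonadotropins and make estradiol. In SF, which lose the support of follicle stimulating hormone once a dominant follicle is established, they stop dividing and die by apoptosis as the follicle undergoes atresia. A miRNA is a short RNA that guides the Argonaute proteins to messenger RNAs, chiefly by pairing of its seed near the 5′ end, and lowers their stability or translation, so that miRNAs with a common seed form a family with overlapping targets.

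The 3 libraries of SF day 3 held 292684, 199599 and 216268 reads on known miRNAs, and the 3 of SF day 7 held 302213, 283680 and 322596. A miRNA with 3 reads made up between 0.00093% and 0.0015% of a library, and this limit covers counting error only. The marker of gonadal somatic cells bta-miR-202 stood between 2213 and 2838 normalized counts in every SF library, and the liver marker bta-miR-122 had 0 reads in all of them.

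The SF day 7 libraries were less alike than those of day 3. Over the 177 miRNAs with a mean of at least 10 reads, the log2 difference between a pair of day 3 libraries had an SD of 0.47 to 0.50, against 0.56 to 0.87 for the pairs of day 7. Replicate 1 of SF day 7 was closer to the day 3 libraries (0.48 to 0.59) than to replicate 3 of its own day (0.63), and it was farthest from replicate 2 (0.87). Several of the results below that depend on these libraries are therefore given with and without them.

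Detection was alike on both days: 296 miRNAs were detected in SF at day 3, 314 at day 7 and 273 on both. The 23 miRNAs detected only at day 3 had a median of 0.667 reads per library and at most 2.17, and the 41 detected only at day 7 had a median of 0.833 and at most 1.83. The miRNAs detected on both days had a median of 33.3 reads. Every miRNA that met the detection rule on a single day was thus at the limit that this depth can show. Missing the rule on the other day did not mean absence there. bta-miR-2443, counted for day 3 only, had 5 reads in replicate 1 of day 7. bta-miR-1, counted for day 7 only, had a mean of 1.33 reads on both days. The most abundant miRNA was bta-miR-10b, which is encoded within a HOX gene cluster, followed by bta-miR-26a. The 10 most abundant miRNAs took 68.1% of the reads at day 3 and 70.7% at day 7.

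A miRNA was called differentially expressed when its log2 fold change was 1 or more in either direction, with p up to 0.05 and a false discovery rate (FDR) up to 10% in edgeR's quasi-likelihood test. In SF, 2 of the 337 miRNAs (0.593%) were differentially expressed between the days. bta-miR-155 rose at day 7 and bta-miR-1271 fell. The DESeq2 Wald test, the tool of the study, called 5: both of these, and bta-miR-21-5p, bta-miR-21-3p and bta-miR-221 as higher. Scaling altered how the calls divided: 1 miRNA was higher and 1 lower with median-of-ratios scaling, 2 were higher and 1 lower with TMM, and 1 was higher and 2 lower with library size alone. bta-miR-100 also passed the FDR of 10% but with a fold below the minimum, so that 0.890% of the tested miRNAs passed the FDR at any fold.

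bta-miR-155, which is cut from a non-coding transcript active in lymphocytes and macrophages and is known for its part in inflammation, was the miRNA that rose in SF. It stood at 119, 82.1 and 109 normalized counts in the SF day 3 libraries and at 146, 555 and 433 in those of day 7. All day 7 libraries lay above all day 3 libraries, but replicate 1 exceeded the highest day 3 value by little. The mean went from 103 ± 18.9 (SD, n = 3) to 378 ± 210 (SD, n = 3), a log2 fold change of 1.89 ± 0.37 (SE) with an adjusted p of 0.0377 in edgeR's quasi-likelihood test. Without replicate 1 of day 7 the log2 fold change was 2.26, and without replicate 2 it was 1.45 with an adjusted p of 0.0525. The call was lost without replicate 1 of day 3 (log2 fold change 1.97, adjusted p = 0.195) and without replicate 2 of day 3 (1.74, adjusted p = 0.277).

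The miRNA that fell was bta-miR-1271, which was listed here with miR-96. It stood at 815, 434 and 340 normalized counts in the SF day 3 libraries and at 261, 140 and 109 in those of day 7. Every day 7 library lay below every day 3 library, and replicate 1 was the highest of its group on both days. The mean went from 529 ± 252 (SD, n = 3) to 170 ± 80.4 (SD, n = 3), and the log2 fold change was -1.62 ± 0.34 (SE) with an adjusted p of 0.0403. Without replicate 1 of day 3 it was -1.21 with an adjusted p of 0.298, and without replicate 2 of day 3 it was -1.75 with an adjusted p of 0.277, so that neither fit called it. In the fit over all 12 libraries bta-miR-1271 was not called, and in that fit bta-miR-155 was the only miRNA called for SF.

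The study names 3 further miRNAs as lower in SF at day 7, and none of them reached all thresholds here. With DESeq2 they missed the fold minimum alone: bta-miR-100 had a log2 fold change of -0.94 with an adjusted p of 0.00246, and bta-miR-2285k and bta-miR-424-5p both had -0.95 with an adjusted p of 0.0583. bta-miR-100, of the miR-99 and miR-100 family that is known to repress the mTOR kinase, stood at 984, 991 and 709 normalized counts at day 3 and at 518, 439 and 429 at day 7. The groups did not overlap, and the day 7 libraries lay close together. Its log2 fold change was -0.94 ± 0.19 (SE) with an adjusted p of 0.0377, and it passed the fold minimum without replicate 3 of day 3 (-1.09), without replicate 1 of day 7 (-1.05) and with library size alone (-1.07).

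bta-miR-2285k belongs to a family of miRNAs that has expanded in ruminants. It stood at 322, 289 and 243 normalized counts at day 3 and at 206, 113 and 117 at day 7, again without overlap, with a log2 fold change of -0.95 ± 0.26 (SE) and an adjusted p of 0.13. bta-miR-424-5p shares its seed with miR-15 and miR-16, which are known to restrain the cell cycle. It stood at 74.0, 87.5 and 98.9 at day 3 and at 49.0, 37.4 and 45.8 at day 7, with a log2 fold change of -0.95 ± 0.27 (SE) and an adjusted p of 0.144. Among all settings run, both were called only without replicate 1 of day 7, where the log2 fold changes were -1.31 and -1.05.

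**Figure D1:**
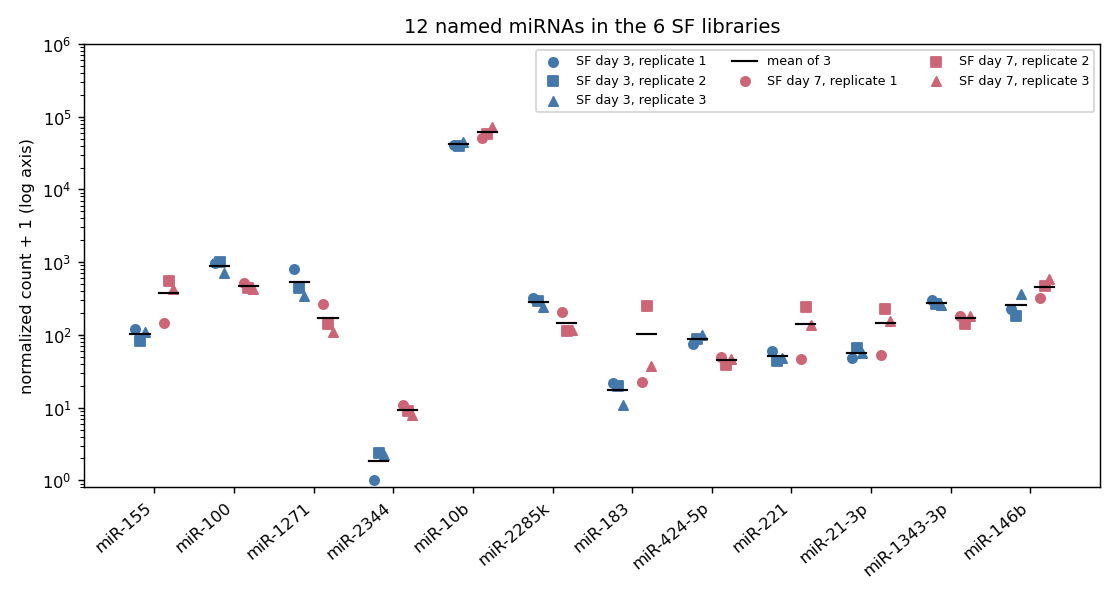
Normalized count + 1 (log axis) of 12 miRNAs in each of the 6 SF libraries, blue for day 3 and red for day 7, with the replicate given by the marker and the mean of 3 by a line. Replicate 1 of day 7 (red circles) lay near the day 3 points for bta-miR-155, bta-miR-183, bta-miR-221 and bta-miR-21-3p, while bta-miR-100 had all day 7 points below all day 3 points.

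Below the calls, 37 miRNAs (11.0%) had an unadjusted p under 0.05, 25 of them higher at day 7 (7.42%) and 12 lower (3.56%). With library size alone this division was 15 higher and 19 lower, and with TMM it was 26 and 9. The median log2 fold change over all tested miRNAs was 0.03, and library size alone moved it by -0.14. Groups that did not overlap were found in 47 of the 337 miRNAs (13.9%), 23 of them higher (6.82%) and 24 lower (7.12%). A fold of at least 1.5 was reached by 70 miRNAs upward (20.8%) and 47 downward (13.9%), and 85 of these 117 had a mean under 10 reads. Over the 177 miRNAs with a mean of at least 10 reads the middle of the distribution, from the lower to the upper quartile, ran from -0.16 to 0.25 on the log2 scale.

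**Figure D2:**
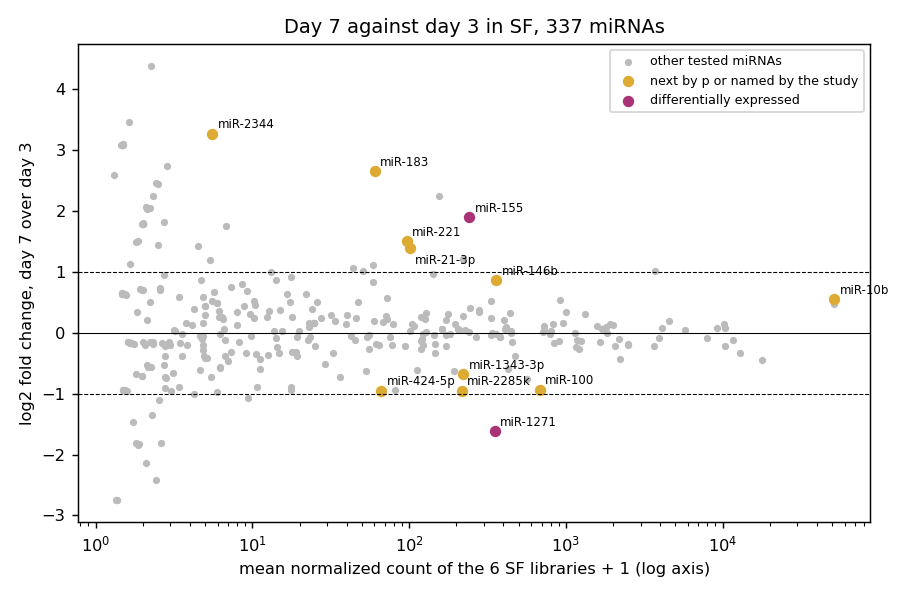
Log2 fold change of SF day 7 over day 3 (vertical) against the mean normalized count + 1 of the 6 SF libraries (log axis) for 337 miRNAs, with dashed lines at a log2 fold change of 1 and -1. The largest changes in either direction lay at the left edge among miRNAs with few reads, and both called miRNAs, bta-miR-155 and bta-miR-1271, had means above 100 normalized counts.

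The next miRNA by p was the scarce bta-miR-2344. It stood at 0, 1.35 and 1.22 normalized counts at day 3 and at 9.80, 8.09 and 6.82 at day 7. All day 7 libraries were higher, and all values were low, with a log2 fold change of 3.27 ± 0.82 (SE) and an adjusted p of 0.111. It was called in 6 of the 17 settings, as it was without replicate 1 of day 7 (adjusted p = 0.0331) or replicate 3 of day 7 (adjusted p = 0.0923).

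bta-miR-10b was the only one of the 10 most abundant miRNAs that was higher in every day 7 library than in every day 3 library. It stood at 41374, 39675 and 44712 normalized counts at day 3 and at 51314, 58693 and 72455 at day 7, and its log2 fold change was 0.55 ± 0.14 (SE, adjusted p = 0.127). Among the other abundant miRNAs, bta-miR-27b was at 15097, 15575 and 12537 normalized counts at day 3 and at 10345, 11794 and 11790 at day 7, lower in every day 7 library with a log2 fold change of -0.33 (adjusted p = 0.427). bta-miR-99b was at 20140 in replicate 1 of day 7 and at 12013 and 12497 in the other two, with day 3 between 19286 and 22157, so the groups overlapped (log2 fold change -0.45, adjusted p = 0.368). bta-miR-26a had a log2 fold change of 0.47, also with overlap (adjusted p = 0.409). The changes of bta-let-7i, bta-miR-92a, bta-miR-191 and bta-miR-125a lay between -0.08 and 0.14, those of bta-let-7a-5p and bta-let-7f at -0.22 and -0.12. Library size alone turned the sign of bta-let-7i, bta-miR-92a and bta-miR-191, while bta-let-7a-5p, bta-let-7f and bta-miR-125a stayed below 0 in every setting run.

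A group of miRNAs was higher in replicates 2 and 3 of SF day 7 and not in replicate 1. Replicate 2 was the highest of its day in 18 of the 25 miRNAs that were higher at an unadjusted p under 0.05, against 2 for replicate 1 and 5 for replicate 3. Among the 12 that were lower, replicate 2 was the lowest in 6, and the other replicates were so in 3 each. Both sets were picked by their day 7 values, and the same count over all tested miRNAs was not made.

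bta-miR-21, which is known to protect granulosa cells from apoptosis, showed this in both arms. Its abundant arm bta-miR-21-5p was at 2558, 2483 and 2433 normalized counts at day 3 and at 2206, 7805 and 4761 at day 7. Its scarcer arm bta-miR-21-3p was at 46.4, 64.6 and 56.2 at day 3 and at 52.6, 224 and 156 at day 7. In both arms replicate 1 of day 7 lay within or below the range of day 3. The log2 fold changes were 1.01 ± 0.31 (SE) and 1.39 ± 0.41 (SE), both with overlap of the groups and an adjusted p of 0.151 and 0.15. For bta-miR-21-3p it was 0.87 without replicate 2 of day 7 (adjusted p = 0.527 in edgeR's quasi-likelihood test). Without replicate 1 of day 7 it was 1.78 (adjusted p = 2.45e-06 in the same test).

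The clustered miRNAs bta-miR-221 and bta-miR-222, which are known to repress the cell cycle inhibitor p27, had the same pattern. bta-miR-221 was at 59.7, 43.1 and 47.6 normalized counts at day 3 and at 46.3, 239 and 137 at day 7, and bta-miR-222 was at 40.1, 24.2 and 46.4 and at 37.4, 122 and 78.0. The day 7 libraries other than replicate 1 were the highest for both, and the log2 fold changes were 1.504 ± 0.44 (SE, adjusted p = 0.15) and 1.12 ± 0.40 (SE, adjusted p = 0.249). For bta-miR-221 it was 0.83 without replicate 2 of day 7 (adjusted p = 0.55 in edgeR's quasi-likelihood test). Without replicate 1 of day 7 it was 1.90 (adjusted p = 1.69e-06 in the same test).

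The cluster of miR-96, miR-182 and miR-183 was highest in replicate 2 of day 7. bta-miR-183 was at 20.5, 18.8 and 9.77 normalized counts at day 3 and at 21.4, 249 and 36.1 at day 7, and bta-miR-182 was at 53.5, 82.1 and 26.9 and at 47.2, 589 and 120. bta-miR-96 had at most 5.06 normalized counts in any SF library. The log2 fold change of bta-miR-183 was 2.65 ± 0.74 (SE, adjusted p = 0.144), and without replicate 2 of day 7 it was 0.76 with an adjusted p of 0.751. bta-miR-1271, which was listed with this cluster, went the other way. Of these 4 miRNAs 3 were higher and 1 was lower at an unadjusted p under 0.05, and the lower was the only call.

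With replicate 1 of day 7 left out, 20 miRNAs were differentially expressed, 15 higher and 5 lower. They included all 5 miRNAs that the study names, and bta-miR-21-5p, bta-miR-21-3p, bta-miR-221, bta-miR-222, bta-miR-182, bta-miR-183, bta-miR-146a, bta-miR-146b, bta-miR-142-5p, bta-miR-150, bta-miR-23a, bta-miR-193b, bta-miR-708, bta-miR-2344 and bta-let-7a-3p. The weight that edgeR gave to the spread shared by all miRNAs, its prior degrees of freedom, was 33.3 in that fit and 9.84 with all 6 libraries. Without replicate 2 of day 7, 2 miRNAs were called, and 23 had an unadjusted p under 0.05, of which 10 were higher and 13 lower. Without replicate 1 or replicate 2 of day 3 there were 0 calls, with 27 and 24 miRNAs at an unadjusted p under 0.05.

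**Figure D3:**
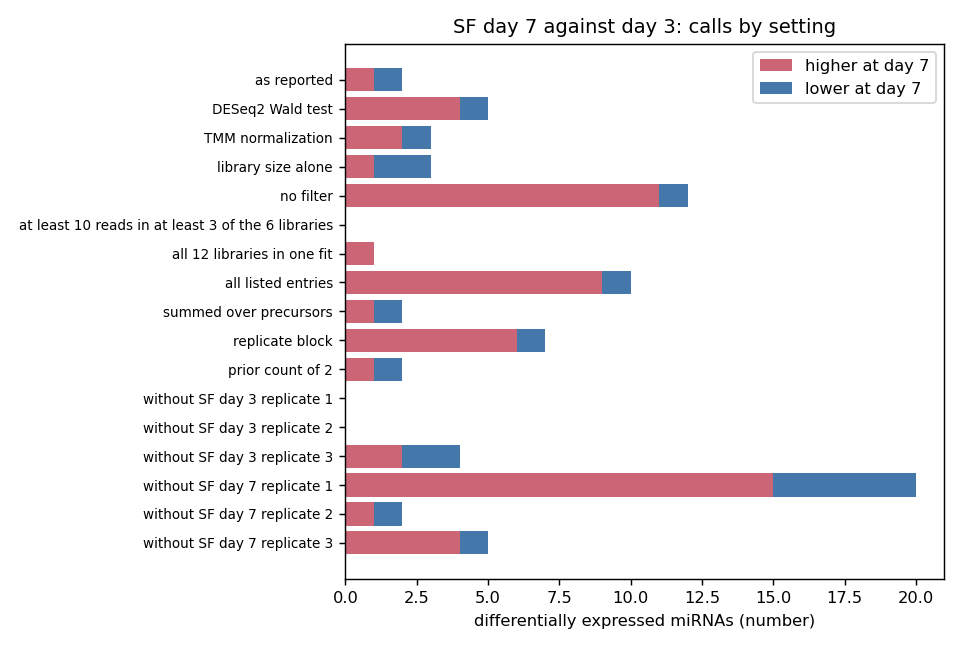
Number of miRNAs differentially expressed in SF between day 7 and day 3 (horizontal bars, from 0) under each setting, with those higher at day 7 in red and those lower in blue. The count was 2 as reported, 20 without replicate 1 of SF day 7, and 0 without replicate 1 or replicate 2 of SF day 3.

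Markers of other cells that follicular fluid can hold were read beside these results. The 6 leukocyte markers were bta-miR-142-3p, bta-miR-142-5p, bta-miR-146a, bta-miR-150, bta-miR-155 and bta-miR-223. Of these 5 were tested, all 5 had a log2 fold change above 0 with a median of 1.06, 4 had an unadjusted p under 0.05, and 1, bta-miR-155 itself, was called. Their summed level was 433, 280 and 376 normalized counts in the SF day 3 libraries and 456, 1570 and 764 in those of day 7. This sum holds bta-miR-155 itself. Without it the SF day 3 libraries summed to 315, 198 and 268, and those of day 7 to 310, 1015 and 331. Replicate 2 of day 7 then stood far above the rest, and replicates 1 and 3 of that day lay near the highest day 3 library. bta-miR-142-5p was at 194, 90.2 and 118 at day 3 and at 151, 597 and 171 at day 7, with a log2 fold change of 1.22 ± 0.45 (SE, adjusted p = 0.263). bta-miR-223, which marks the myeloid lineage, had 10 reads over the 6 libraries and bta-miR-142-3p had 1. The part of leukocytes in the values of bta-miR-155 was not tested.

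Erythrocyte markers were highest in replicate 1 of SF day 3, the library that was also highest for bta-miR-1271. The summed level of bta-miR-144, bta-miR-451 and bta-miR-486 was 1642, 502 and 315 normalized counts at day 3 and 462, 438 and 515 at day 7. All 3 had a log2 fold change below 0, with a median of -0.94, and 1 had an unadjusted p under 0.05. bta-miR-144 had 2 reads in all. The part of erythrocytes in the fall of bta-miR-1271 was not tested, and without that library the log2 fold change of bta-miR-1271 was -1.21, as given above. The endothelial markers bta-miR-126-3p and bta-miR-126-5p summed to between 103 and 131 normalized counts at day 3 and to 90.9, 221 and 102 at day 7, where replicate 2 was again the highest. The markers of smooth muscle, theca and stroma, bta-miR-143, bta-miR-145, bta-miR-1 and bta-miR-133a, summed to between 3696 and 4898 at day 3 and to between 2872 and 4912 at day 7. None of their 4 members had an unadjusted p under 0.05. The gonadal markers bta-miR-202, bta-miR-224 and bta-miR-383 summed to between 2603 and 2975 at day 3 and to between 2326 and 2649 at day 7, and the median log2 fold change of the 3 was -0.34.

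By family, edgeR called a member in no list other than that of bta-miR-1271 and the leukocyte markers. For the let-7 family, known for promoting differentiation, 10 miRNAs were listed by name. Of these 0 were called and 0 had an unadjusted p under 0.05 in edgeR's quasi-likelihood test, and DESeq2 called 0 of them too. The median log2 fold change of this list was -0.12, against 0.03 over all tested miRNAs, and 7 of the 10 were below 0. The smallest p was that of bta-let-7a-3p, which is the opposite arm to bta-let-7a-5p. It was at 41.0, 44.4 and 46.4 normalized counts at day 3 and at 38.3, 19.2 and 20.5 at day 7 (log2 fold change -0.73 ± 0.35, SE, adjusted p = 0.469). It lay lower in every day 7 library, by least in replicate 1.

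The miR-10, miR-99, miR-100 and miR-125 miRNAs, which were grouped by name and not by seed, did not move together. Of its 8 members 0 were called by edgeR or by DESeq2, 1 was higher and 3 were lower at an unadjusted p under 0.05, and the log2 fold changes ran from -0.94 in bta-miR-100 to 0.80 in bta-miR-99a-3p. bta-miR-99a-5p, the closest relative of bta-miR-100, was at 2647, 2757 and 2290 normalized counts at day 3 and at 2162, 1702 and 1765 at day 7. It lay lower in every day 7 library, as bta-miR-100 did, with a log2 fold change of -0.44 ± 0.16 (SE, adjusted p = 0.263).

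The relatives of bta-miR-424-5p likewise did not follow it as a group. Of the 8 members of the miR-15 family, 4 were higher and 4 lower, with a median log2 fold change of 0.00, and bta-miR-424-5p was the only one with an unadjusted p under 0.05. Its most abundant member bta-miR-16b was at 1865, 1917 and 1955 normalized counts at day 3 and at 2502, 1699 and 2006 at day 7, a difference of 0.13 ± 0.16 (SE) on the log2 scale. The tested miRNAs encoded within 10 kb of bta-miR-424-5p were bta-miR-424-3p, bta-miR-450a, bta-miR-450b, bta-miR-503-3p, bta-miR-503-5p and bta-miR-542-5p, and bta-miR-3601, also there, was not tested. With bta-miR-424-5p they make 7 tested miRNAs, of which 6 had a log2 fold change below 0, with a median of -0.38. bta-miR-542-5p was at 11.6, 12.1 and 11.0 normalized counts at day 3 and at 8.02, 4.05 and 3.90 at day 7, without overlap (log2 fold change -1.07 ± 0.51, SE, adjusted p = 0.461). bta-miR-450b, the most abundant, was at 528, 541 and 547 at day 3 and at 625, 298 and 306 at day 7, so replicate 1 stood above day 3 and the others below it. No other miRNA gene lay within 10 kb of bta-miR-155, bta-miR-1271, bta-miR-100 or the precursor used for bta-miR-2285k, which has several.

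Of the 28 tested members of the ruminant miR-2284 and miR-2285 family 0 were called by edgeR or by DESeq2, and 1, bta-miR-2285k, had an unadjusted p under 0.05. The log2 fold changes were above 0 in 18 and below 0 in 10, with a median of 0.16, which library size alone brought to 0.01. Several names in this family carried identical counts in every library, so reads could be shared between near-identical members.

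miRNAs described in steroid production and the gonadotropin response of granulosa cells showed 0 calls among 8 tested members with edgeR and with DESeq2, and 1 had an unadjusted p under 0.05. The smallest p was that of bta-miR-378, which is known to repress aromatase, the enzyme that makes estradiol. It was at 727, 709 and 829 normalized counts at day 3 and at 1059, 1209 and 953 at day 7. All day 7 libraries were higher, including replicate 1, with a log2 fold change of 0.53 ± 0.17 (SE) and an adjusted p of 0.156. bta-miR-202, the most abundant of the list, was at 2414, 2750 and 2838 at day 3 and at 2474, 2213 and 2243 at day 7, a log2 fold change of -0.19 ± 0.15 (SE, adjusted p = 0.74). The median of the list was 0.02.

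Of the 11 tested miRNAs described in granulosa cell apoptosis and atresia, edgeR called 0 and DESeq2 called both arms of bta-miR-21. At an unadjusted p under 0.05, 3 were higher, which were both arms of bta-miR-21 and bta-miR-23a, and 1 was lower, bta-miR-27b. bta-miR-23a was at 50.8, 32.3 and 42.8 normalized counts at day 3 and at 50.8, 101 and 71.1 at day 7, once more with replicate 1 inside the day 3 range (log2 fold change 0.84 ± 0.32, SE, adjusted p = 0.309). The median of the list was 0.14, and library size alone put it at -0.02.

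The same days were compared in DF, which share no library with SF. On each day, SF and DF came from the same group of heifers, so libraries of both classes may share animals. The test of the interaction below treated all libraries as independent. There 145 of 360 miRNAs (40.3%) were differentially expressed, 88 higher (24.4%) and 57 lower (15.8%), so the comparison called far more miRNAs than in SF with the same number of libraries and a similar common dispersion (0.0729 in DF, 0.0644 in SF). Whether the change between the days differed between SF and DF was tested as the interaction over all 12 libraries, where 100 of 378 miRNAs (26.5%) passed the thresholds. The 2 calls, the other miRNAs that the study names and the next by p, 12 SF miRNAs in all, were set beside DF. Of these 10 were differentially expressed in DF, 9 had the same direction there, 9 had the larger change in DF, and 9 passed the test of the interaction. The 12 were picked by their change in SF, and the same SF libraries enter the interaction. The 9 that passed it can therefore not be read against the 26.5% of all miRNAs.

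bta-miR-155 had the largest change in DF of these 12. There it went from 26.1 ± 7.85 (SD, n = 3) normalized counts at day 3 to 3906 ± 1176 (SD, n = 3) at day 7, a log2 fold change of 7.23 ± 0.34 (SE), and the interaction, the SF change minus the DF change, was -5.37 on the log2 scale with an adjusted p of 1.75e-06 in edgeR's quasi-likelihood test. bta-miR-221 and bta-miR-21-3p, whose SF libraries overlapped, had log2 fold changes of 7.00 and 6.61 in DF and interactions of -5.54 (adjusted p = 6.65e-06) and -5.26 (adjusted p = 2.81e-06). bta-miR-146b, which is induced by the NF-kB pathway, was at 223, 182 and 365 normalized counts in SF at day 3 and at 323, 469 and 589 at day 7 with a log2 fold change of 0.87 ± 0.27 (SE, adjusted p = 0.151). In DF its log2 fold change was 4.20, and the interaction was -3.36 (adjusted p = 0.000928). Cell markers also moved in DF, where 24.4% of all miRNAs were called higher and 15.8% lower. All 5 leukocyte markers tested in SF, bta-miR-155 among them, were called higher in DF. So were 3 of the 4 markers of smooth muscle, theca and stroma and 1 of the 2 endothelial markers. Of the 3 gonadal markers 2 were called lower, and 0 erythrocyte markers were called. The part of other cells in the DF changes and in the interactions was not tested.

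The fitted changes of the miRNAs lower in SF were more negative in DF for bta-miR-2285k, bta-miR-1343-3p, bta-miR-1271 and, by little, bta-miR-424-5p. bta-miR-2285k had a log2 fold change of -3.26 in DF and an interaction of 2.27 (adjusted p = 0.00112). bta-miR-1343-3p was at 304, 263 and 254 normalized counts in SF at day 3 and at 184, 140 and 182 at day 7, lower in all day 7 libraries with a log2 fold change of -0.68 ± 0.20 (SE, adjusted p = 0.15), and had -3.23 in DF with an interaction of 2.50 (adjusted p = 2.9e-05). bta-miR-1271 had a log2 fold change of -3.04 in DF, where day 3 was at 521 ± 376 (SD, n = 3) and day 7 at 64.2 ± 6.61 (SD, n = 3), and its interaction of 1.37 did not pass (adjusted p = 0.151). That interaction passed without replicate 1 of SF day 3 (1.84, adjusted p = 0.0621), replicate 3 of SF day 7 (1.60, adjusted p = 0.0959) or replicate 3 of DF day 3 (1.795, adjusted p = 0.0299), and it was 0.70 without replicate 1 of DF day 3 (adjusted p = 0.461). bta-miR-424-5p had nearly the same change in DF, -1.01 ± 0.30 (SE), and an interaction of 0.02 ± 0.40 (SE).

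The direction was opposite in DF for bta-miR-100, bta-miR-10b and bta-miR-2344. bta-miR-100 was at 609 ± 102 (SD, n = 3) normalized counts in DF at day 3 and at 935 ± 365 (SD, n = 3) at day 7, which was not called (log2 fold change 0.60 ± 0.29, SE, adjusted p = 0.111), and the interaction was -1.57 (adjusted p = 0.00389). bta-miR-10b fell in DF from 34696 ± 8655 (SD, n = 3) to 15491 ± 745 (SD, n = 3), with a log2 fold change of -1.18, and its interaction was 1.70 (adjusted p = 4.11e-05). The interaction thus passed for bta-miR-10b although its change in SF did not pass the test. All 3 of these miRNAs were picked by SF values that also enter the interaction. For bta-miR-2344, with under 10 normalized counts in every SF library, the interaction was 4.97 (adjusted p = 0.023).

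**Figure D4:**
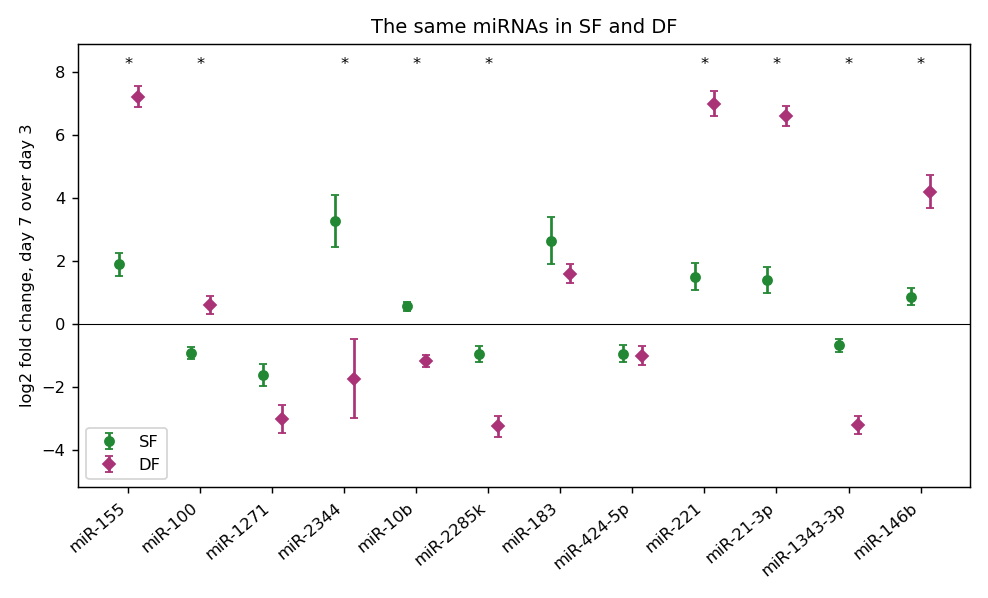
Log2 fold change of day 7 over day 3 with its SE for 12 miRNAs in SF (green circles) and in DF (purple diamonds), an asterisk marking the 9 miRNAs whose interaction of day and follicle passed the thresholds. bta-miR-155, bta-miR-221 and bta-miR-21-3p had changes of 6.61 to 7.23 in DF and of 1.39 to 1.89 in SF, and bta-miR-100, bta-miR-10b and bta-miR-2344 had opposite signs in the 2 classes.

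The SF libraries were then placed along the change seen in DF. Among the miRNAs with a mean of at least 10 reads in SF, 43 rose in DF and 45 fell in DF. In SF, 34 of the 43 were higher at day 7, with a median log2 fold change of 0.32, and 27 of the 45 were lower, with a median of -0.08, while of all 177, 99 were higher and 78 lower, with a median of 0.04. Measured in each library against the mean of SF day 3, the 43 miRNAs stood at a median of -0.07 in replicate 1 of SF day 7, at 0.72 in replicate 2 and at 0.33 in replicate 3. The day 3 libraries, each set against the mean of the other day 3 libraries so as not to enter its own reference, lay at 0.09, -0.17 and 0.01. Replicate 1 of day 7 was within that range and the other two were above it. The 45 miRNAs stood at 0.04, -0.29 and -0.12 in the same order. In the DF day 7 libraries these medians were 2.18 to 2.58 and -1.75 to -1.42. Of the 43 miRNAs, 16 were above the SF day 3 mean in replicate 1, 37 in replicate 2 and 32 in replicate 3, against 87, 78 and 92 of all 177 miRNAs.

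**Figure D5:**
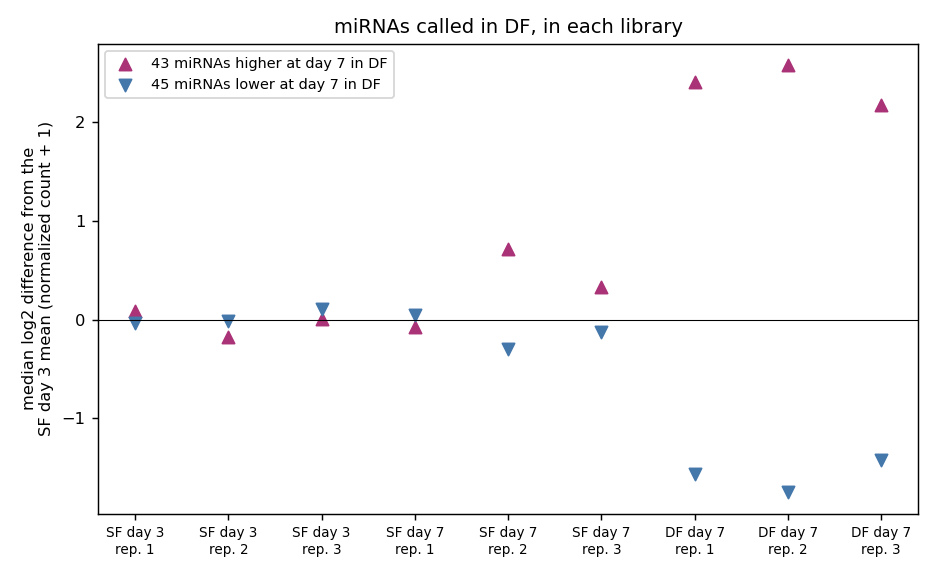
Median log2 difference from the SF day 3 mean, on normalized count + 1, of 43 miRNAs higher at day 7 in DF (upward triangles) and 45 lower (downward triangles), in each SF library and in the DF day 7 libraries, with each day 3 library set against the mean of the other day 3 libraries. Replicate 1 of SF day 7 stood at -0.07 and 0.04, near the day 3 libraries, replicate 2 at 0.72 and -0.29, and the DF day 7 libraries beyond 2 and -1.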

How the data were processed

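Granulosa cell small RNA libraries (TruSeq Small RNA protocol) were base called with CASAVA 1.8.0 per the labels, trimmed with cutadapt, aligned to bovine UMD 3.1 and matched to miRBase with miRDeep2. The authors deposited raw read counts for each mature and precursor pair and library, without normalization. A read matching several precursors was listed at each, hence the single entry per mature name. From the raw counts, miRNAs with 1 or more reads in 2 or more of 3 replicates on either day were tested in R 4.3.3 with edgeR 4.0.16 (RLE factors, two-sided quasi-likelihood F test, Benjamini-Hochberg over all tested miRNAs, prior count of 0.125). The SE is the size of the log2 fold change divided by the square root of F, an approximation. The interaction was fitted to all 12 libraries. Normalized counts were raw counts divided by median-of-ratios factors over the 12 libraries. The chi-square per degree of freedom between replicates was 10.2 to 24.5 at day 3 and 18.7 to 92.3 at day 7, so no pair was alike within counting noise.

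The study compared the days with DESeq2, which is an alternative here. The members and lists were chosen with earlier results of these data known. Named were the called miRNAs, those the study names for SF, the 10 smallest p among the rest, the 10 most abundant, miRNAs encoded within 10 kb of a called or study-named miRNA, list members with the highest mean or smallest p, and markers. Members outside this rule were chosen after their values were seen. Genes were matched by name to RefSeq (ARS-UCD2.0, 334 of 337 tested miRNAs), used only for neighbours. No mature sequences were used here, so seeds were not compared. Alternatives were DESeq2 1.42.0, TMM, library size alone, other filters, all listed entries or their sum, a replicate block, a prior count of 2, an FDR of 5%, all 12 libraries and leaving out each library; those for DF were added after the data were seen. The procedure was tested on simulated counts.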

Additional observations from a re-analysis of the deposited data

Results flagged for a closer look

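Groups of 3 are too small for a test of single outlying libraries. The change between day 7 and day 3 differed between SF and DF for 28 of the named miRNAs that were looked at. The test was edgeR's quasi-likelihood test of the interaction over all 12 libraries, with an FDR of at most 10% and a log2 difference of at least 1. Over all miRNAs, 100 of 378 (26.5%) passed it. Looked at were the called and study-named miRNAs, the next 10 by p, the 10 most abundant, and list members with the highest mean or smallest p. The count of 28 is therefore not a share of all named miRNAs. Many of those looked at were picked by SF values that also enter the interaction, so the count cannot be read against the 26.5%. Values are the SF change minus the DF change on the log2 scale.

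The change in SF was the lower of the pair for bta-miR-221 (-5.54), bta-miR-155 (-5.37), bta-miR-21-3p (-5.26), bta-miR-21-5p (-4.66), bta-miR-449c (-4.51), bta-miR-133a (-4.22), bta-miR-449a (-4.21), bta-miR-146b (-3.36), bta-miR-199c (-3.21), bta-miR-181a (-3.19), bta-miR-199a-5p (-3.15), bta-miR-181c (-2.42), bta-miR-29a (-2.02), bta-miR-143 (-1.98), bta-miR-451 (-1.82), bta-miR-100 (-1.57) and bta-miR-27b (-1.13). It was the higher of the pair for bta-miR-2344 (4.97), bta-miR-1343-3p (2.50), bta-miR-20b (2.32), bta-miR-2285k (2.27), bta-miR-202 (2.04), bta-miR-10b (1.70), bta-miR-450b (1.53), bta-miR-16b (1.32), bta-miR-30e-5p (1.30), bta-miR-99b (1.19) and bta-miR-191 (1.17). Of these, bta-miR-133a, bta-miR-20b, bta-miR-2344 and bta-miR-449c had means under 10 normalized counts in SF on both days. The counts of bta-miR-199c and bta-miR-199a-3p were nearly identical, so their reads may be shared.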

How the results depend on the processing

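The count of 2 miRNAs differentially expressed in SF became 5 with the DESeq2 Wald test, 12 without a filter, 10 with all listed entries, 7 with a replicate block, 1 with all 12 libraries in one fit and 0 when 10 or more reads were asked for in 3 or more of the 6 libraries (25 at an unadjusted p under 0.05). It was 3 with TMM and with library size alone, and 2 with counts summed over precursors, a prior count of 2 or an FDR of 5%. Leaving out each library gave 0 to 20: 0 without replicate 1 or 2 of SF day 3, 4 without replicate 3 of SF day 3, and 20, 2 and 5 without replicates 1, 2 and 3 of SF day 7. edgeR's prior degrees of freedom were infinite without a filter and with the block, 42.3 with all listed entries, 33.3 without replicate 1 of SF day 7 and between 4.64 and 16 in the other edgeR fits. The cause of these shifts was not tested. The replicate numbers did not pair the samples: different heifers were used on each day, and the deviations of same-numbered libraries correlated at -0.15, 0.08 and 0.06 over 177 miRNAs.

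Of 314 alternative log2 fold changes of named SF miRNAs, 274 kept their direction and side of the threshold, 28 passed it newly, 6 no longer passed it and 6 turned sign. The sign turned for bta-let-7i (main 0.08) with library size alone (-0.044) and without replicate 1 of SF day 3 (-0.011) or of SF day 7 (-0.24, leave-one-out range -0.24 to 0.23), for bta-miR-92a (0.14) with library size alone (-0.019), and for bta-miR-191 (0.08) with library size alone (-0.050) and without replicate 1 of SF day 7 (-0.11, leave-one-out range -0.11 to 0.17). The interaction was called for 9 or 10 of the 12 miRNAs in every alternative run, the added miRNA being bta-miR-1271, as with the replicate block (1.11), and DF for 9 or 10. Depth limits miRNAs under 10 reads, 160 of the 337 tested.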

Other observations

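The remaining groups are given by their counts, to be read against the share of all tested miRNAs that was called, 0.593% in SF and 24.4% higher and 15.8% lower in DF, at which 0 calls in SF is the usual count for a small group. For every group below, edgeR and DESeq2 called 0 members in SF, and bta-miR-199a-5p was the only member with an unadjusted p under 0.05. All 5 tested members of the miR-199 and miR-214 group rose in DF, while in SF 0 were called, the median log2 fold change was -0.07, and bta-miR-199a-5p was lower in every day 7 library. It stood at 262, 228 and 220 normalized counts in the SF day 3 libraries and at 159, 160 and 134 in those of day 7 (log2 fold change -0.63 ± 0.21, SE, adjusted p = 0.187 in edgeR's quasi-likelihood test). In DF it went from 119 ± 12.5 (SD, n = 3) to 672 ± 193 (SD, n = 3). The 4 members of the miR-181 family all rose in DF, and in SF their median log2 fold change was 0.07. bta-miR-181a, the most abundant, was at 887, 839 and 1007 in the SF day 3 libraries and at 678, 1175 and 1144 in those of day 7.

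bta-miR-202, a miRNA of gonadal somatic cells, fell in DF from 3325 ± 302 (SD, n = 3) to 697 ± 309 (SD, n = 3) normalized counts and stayed between 2213 and 2838 in all SF libraries. bta-miR-143, known from smooth muscle, rose in DF with a log2 fold change of 1.84 and had -0.09 ± 0.19 (SE) in SF. The miR-17-92 cluster and its relatives had 14 tested members with a median log2 fold change of 0.05 in SF and 0 calls, and the miR-30 family had 6 with a median of -0.17 and 0 calls. The miR-34 and miR-449 family had 5 tested members, all but 1 with means under 10 reads, with 0 calls in SF and 4 that rose in DF. The miR-29 family had 3, all of which rose in DF, and 0 calls in SF. The miR-200 family had 3 tested members, 0 of them with a mean of at least 10 reads. Of the 48 listed miRNAs of the imprinted DLK1-DIO3 cluster 14 were tested and 0 called, and bta-miR-127 was the only one with a mean of at least 10 reads.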
